A study of Homo sapiens with 6 samples.

Results

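The Notch genes described here were 3 receptors (NOTCH1, NOTCH2 and NOTCH3), 3 ligands (JAG1, JAG2 and DLL1), the DNA-binding factor RBPJ and 3 target genes (HES1, HES4 and HEY1). They were chosen by symbol, and all 10 had a row among the 17211 genes of the deposited table. RNA had been sequenced from human CAOV2 cells of ovarian cancer, described in the labels as a cell line in 1 place and as primary cells in another. In 3 libraries the cells had received siRNA against TAZ (siTAZ), a transcriptional coactivator of the Hippo pathway encoded by WWTR1, and in 3 libraries a non-targeting control siRNA (siNT). All 6 were transfected for 2 days (100 pmol siRNA, 6 µL lipid reagent) and collected on day 3, and none was left untransfected. The 2 siRNA reagents came from different product lines, with 1 reagent per group, so that effects of an siRNA's own sequence and of TAZ silencing cannot be told apart. The titles call the libraries biological replicates without saying whether they came from separate days, so p-values measure the spread between these libraries, which may be partly technical.

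Notch receptors are single-pass membrane proteins that are activated by ligands of the Jagged and Delta-like families on neighbouring cells. Ligand binding exposes the receptor to cleavage by an ADAM protease and then by gamma-secretase, and the freed intracellular domain enters the nucleus, binds RBPJ and turns a repressor complex into an activating complex. Genes of the HES and HEY families, which encode basic helix-loop-helix repressors, are its best known direct targets. In epithelial cancers, ovarian cancer among them, the pathway is studied for its part in proliferation and cell fate, and JAG1 has been described as a target of YAP and TAZ.

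In siNT, WWTR1 stood at 4359, 4217 and 4258, and in siTAZ at 242, 277 and 280, a 16.1-fold fall. These and all later levels, unless given per kb, are the deposited values: read counts scaled by 1 size factor per library. The libraries held 25478595 to 34488196 reads in genes. Within groups, Pearson's r of log2 values lay between 0.992 and 0.995 (over genes, which are no independent replicates). Replicate 1 stood somewhat apart in each group: compared over genes, its reads gave a chi-square per degree of freedom of 5.50 and 6.69 against the other siNT libraries, which gave 2.75 with each other, and of 7.57 and 8.62 in siTAZ, against 2.90. Leaving out both libraries numbered 1 was therefore added after the data were seen. It ended the call of NOTCH1 and gave a call to RBPJ (both below), and the other 8 Notch genes kept direction and call. Of 10 markers of ovarian carcinoma and epithelium, 8 had values, and their summed level was 96359 to 104805 in siNT and 92366 to 100618 in siTAZ. Within that sum they did not move together: KRT8, the most abundant, was at 35206 ± 1349 in siNT and 39346 ± 1316 in siTAZ (SD, n = 3), KRT7 at 22847 ± 1267 and 8604 ± 879, KRT19 at 14965 ± 798 and 23778 ± 986, and EPCAM at 501 ± 10.3 and 1361 ± 42.0. CDH1 was at 239 to 271 in siNT and 563 to 593 in siTAZ. PAX8 and MUC16, which mark ovarian carcinoma more closely, were scarce. They were at 28.8 ± 13.9 and 11.9 ± 3.67 in siNT and at 18.2 ± 3.28 and 7.98 ± 1.55 in siTAZ. WT1 and ESR1 had no row among the genes of the deposited table. Of 6 endothelial markers 0 had values. For 7 fibroblast markers, 6 with values, the summed level was 5609 to 6399 in siNT and 6614 to 7502 in siTAZ. These markers did not move together either. LUM, the most abundant, was at 3797 ± 362 and 3885 ± 358, and COL1A1 at 425 ± 11.3 and 453 ± 5.69. COL3A1 was at 661 ± 76.9 and 1408 ± 94.2, and PDGFRA at 1033 ± 30.5 and 1405 ± 77.9. Of the scarce markers, PDGFRB was at 10.1 ± 4.70 and 34.2 ± 4.97, and COL1A2 at 12.6 ± 2.69 and 1.30 ± 1.14. For 6 leukocyte markers, 3 with values, the summed level was 137 to 145 and 268 to 318. Of these 3, LYZ was at 20.9 ± 1.92 and 127 ± 18.8, CD14 at 61.9 ± 8.08 and 115 ± 1.36, and CD68 at 58.3 ± 6.14 and 52.4 ± 6.48. The part of these differences in the results below was not tested. In such bulk RNA, fewer cells that express a gene and less of its RNA per cell cannot be told apart.

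After TAZ silencing, the main ligand JAG1 fell 2.13-fold while the scarce ligand DLL1 rose 3.42-fold, the main receptor NOTCH2 rose 1.31-fold while the scarce receptor NOTCH3 fell 1.86-fold, and the targets parted, with HES1 1.17-fold higher and HES4 and HEY1 1.44-fold and 1.39-fold lower. Of the 10 genes, 8 passed the test at an adjusted p of 0.05 (limma on log2 values over all 17204 genes with a mean of at least 1, Benjamini-Hochberg). For comparison, the share of the whole table that passed was 55.8%, with 28.3% higher and 27.5% lower in siTAZ. With 4 of 10 higher and 4 of 10 lower, these Notch genes had a median log2 fold change of 0.09, against -0.0013 over all genes. The groups did not overlap for 8 of the 10, and for 61.4% of all genes tested. Only JAG1 and DLL1 among the 10 passed the test with a change of at least 2-fold, and 10.6% of all genes tested did so.

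**Figure D1:**
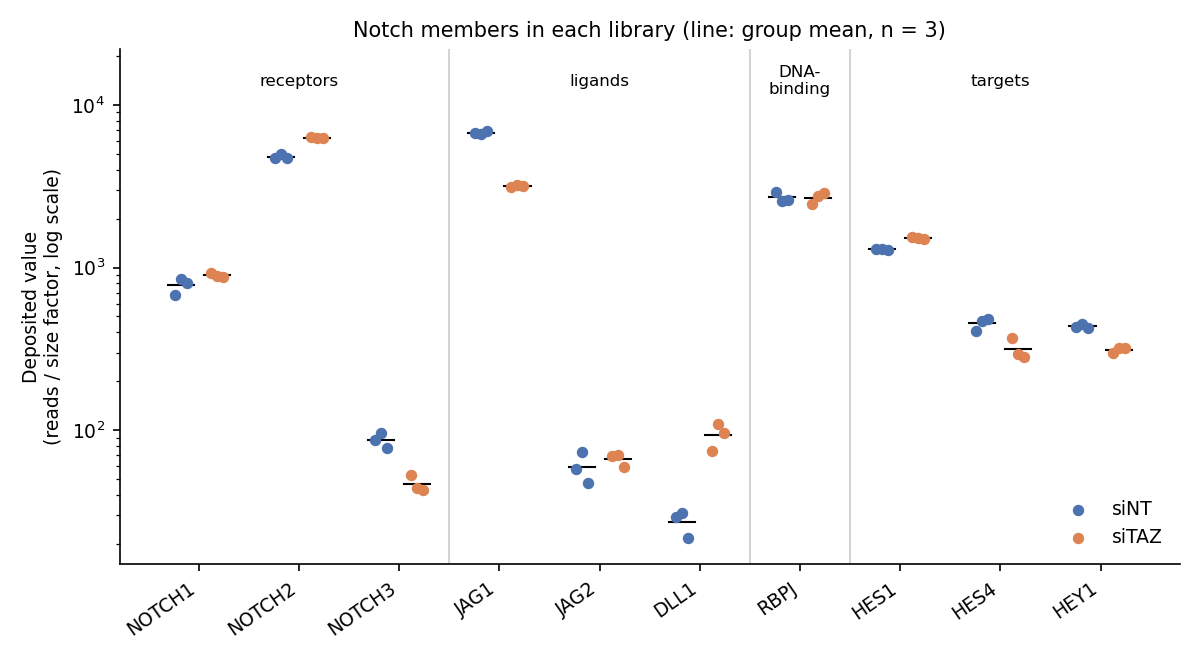
Deposited value of each Notch gene in each library on a log axis, in the order of their roles, with siNT in blue, siTAZ in orange and a line at the mean of 3 libraries. The 2 groups overlap in JAG2 and RBPJ, and the widest gaps are in JAG1, 6588 to 6912 in siNT against 3115 to 3231 in siTAZ, and in DLL1, 21.8 to 31.0 against 74.8 to 109.

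Of the receptors, NOTCH2 was the most abundant. Its values were 4689, 4964 and 4737 in siNT and 6309, 6293 and 6248 in siTAZ. Every siTAZ library was above every siNT library, and the log2 fold change was 0.39 (SE 0.04, limma adjusted p = 1.1e-06). The genome holds partial copies of NOTCH2 that are nearly identical to it, and the sources used here do not say how reads that match both were counted, so its level is uncertain to that extent. NOTCH3, a receptor best known from smooth muscle of arteries and from ovarian cancers with extra copies of it, was at 86.9, 96.2 and 77.3 in siNT and at 53.0, 44.1 and 42.6 in siTAZ. The groups did not overlap, and NOTCH3 changed by -0.89 in log2 (SE 0.16, limma adjusted p = 0.00015). It rested on 48 to 90 reads per library.

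NOTCH1, the receptor with activating mutations in T cell leukaemia, showed the smallest difference of the genes that passed. It was at 682, 851 and 804 in siNT and at 926, 885 and 876 in siTAZ. The siTAZ values lay close together above those of siNT, of which replicate 1 was the lowest. The log2 fold change was 0.21 (SE 0.08, limma adjusted p = 0.027). The call was lost without siNT replicate 1, where the log2 fold change was 0.11 (limma adjusted p = 0.16), without both libraries numbered 1 (log2 fold change 0.09, limma adjusted p = 0.18), without siTAZ replicate 2 (limma adjusted p = 0.056), without the intensity trend (limma adjusted p = 0.12) and with the replicate number as a block (limma adjusted p = 0.050, just above the threshold), with a range of 0.0073 to 0.18 over 17 alternatives.

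JAG1, a Jagged ligand, was the most abundant of the 10 genes in siNT, at 6722, 6588 and 6912. In siTAZ it was at 3115, 3231 and 3158. The gap between the groups far exceeded the spread within them, and the log2 fold change was -1.09 (SE 0.04, 95% interval -1.18 to -0.99, limma adjusted p = 5.2e-12). It ran from -1.11 to -1.04 over 17 alternatives. DLL1, a Delta-like ligand, went the other way from a low level, with 29.3, 31.0 and 21.8 in siNT and 74.8, 109 and 96.4 in siTAZ. It was read 18 to 29 times per siNT library and 72 to 119 times per siTAZ library. The lowest siTAZ library was above the highest siNT library, and the log2 fold change was 1.73 (SE 0.19, 95% interval 1.32 to 2.14, limma adjusted p = 8.7e-07), or 1.46 with the pseudocount of 10. JAG2, the other Jagged ligand, was at 57.6, 73.8 and 47.1 in siNT and 69.6, 70.7 and 59.7 in siTAZ. These ranges overlapped, and JAG2 did not pass the test (log2 fold change 0.18, 95% interval -0.19 to 0.55, limma adjusted p = 0.40). Leaving out 1 library moved it by over 1.5 times: it was 0.03 without siNT replicate 3 and 0.35 without siNT replicate 2, and did not pass in either. In GENCODE release 29, 7.33% of its merged exon length is shared with another gene, AL512356.1, on the same strand, which makes its low level less certain.

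**Figure D2:**
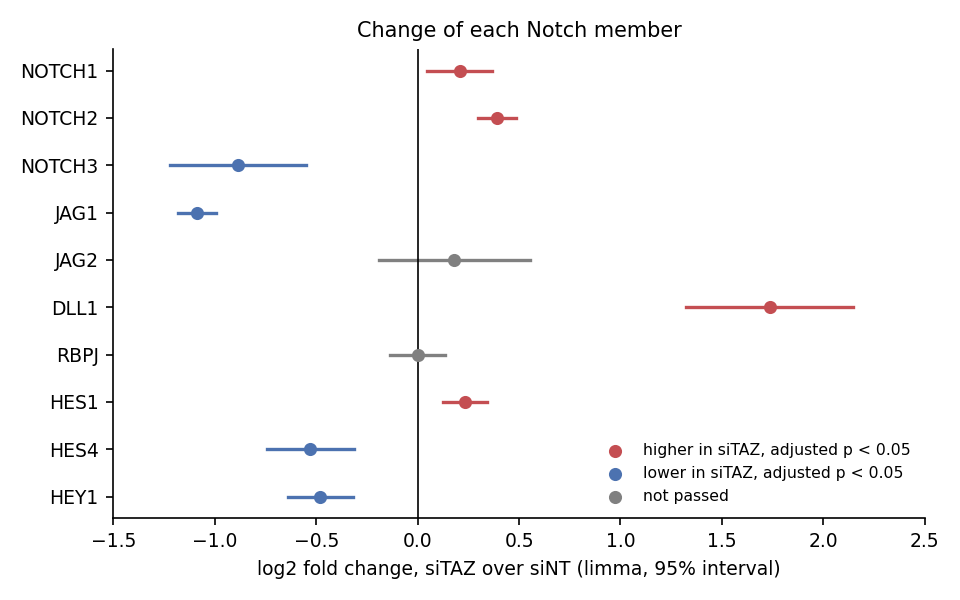
Log2 fold change of each Notch gene, siTAZ over siNT, with limma's 95% interval, from 3 libraries per group. Genes that passed as higher are red, as lower blue, and the others grey. DLL1 at 1.73 and JAG1 at -1.09 lie farthest from 0, and the intervals of JAG2 and RBPJ include 0.

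RBPJ, which carries every canonical Notch signal to DNA, had a mean of 2696 ± 204 in siNT and 2696 ± 203 in siTAZ (SD, n = 3). Its values were 2931, 2560 and 2598 in siNT and 2468, 2761 and 2858 in siTAZ. The groups overlapped throughout, and the log2 fold change was -0.00055 (95% interval -0.13 to 0.13, limma adjusted p = 0.99), with either sign among the alternatives. Without both libraries numbered 1, the highest of siNT and the lowest of siTAZ, RBPJ passed as higher (log2 fold change 0.12, limma adjusted p = 0.0094, range 0.0094 to 1.00 over 17 alternatives). GENCODE lists several processed pseudogenes of RBPJ, and some of its reads could be shared with them.

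Among the targets, HES1, a repressor that holds back differentiation and its own gene, was at 1301, 1308 and 1279 in siNT and at 1539, 1520 and 1507 in siTAZ. Both groups were tight, with no overlap, and the log2 fold change of HES1 was 0.23 (SE 0.05, limma adjusted p = 0.0010). HES4, a relative that lacks a counterpart in the mouse, was at 406, 470 and 483 in siNT and at 368, 296 and 281 in siTAZ. Its replicates spread more, siNT replicate 1 and siTAZ replicate 1 came closest to each other, and the log2 fold change was -0.53 (SE 0.10, limma adjusted p = 0.00026). HEY1, a HEY family repressor active in vessels and heart, was at 430, 452 and 425 in siNT and at 299, 318 and 320 in siTAZ. No siTAZ library reached the siNT range, and HEY1 changed by -0.48 in log2 (SE 0.08, limma adjusted p = 4.5e-05).

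The sequences before the starts of HES1 and HES4 are shown because these genes, both known to be under RBPJ, moved in opposite directions. The windows are the 250 bases before the start, on the gene's strand, from RefSeq on GRCh38.p14, while the reads had been aligned to hg19. Capitals mark the letters TGGGAA, the core of the site that RBPJ binds, searched on both strands.
HES1, chr3:194135898-194136147, plus strand: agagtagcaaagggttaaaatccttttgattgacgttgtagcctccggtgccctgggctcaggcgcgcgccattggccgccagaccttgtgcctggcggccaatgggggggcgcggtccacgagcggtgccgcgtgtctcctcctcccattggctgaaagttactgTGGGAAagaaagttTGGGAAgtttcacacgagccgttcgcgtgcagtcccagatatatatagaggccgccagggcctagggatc
HES4, chr1:1000098-1000347, minus strand: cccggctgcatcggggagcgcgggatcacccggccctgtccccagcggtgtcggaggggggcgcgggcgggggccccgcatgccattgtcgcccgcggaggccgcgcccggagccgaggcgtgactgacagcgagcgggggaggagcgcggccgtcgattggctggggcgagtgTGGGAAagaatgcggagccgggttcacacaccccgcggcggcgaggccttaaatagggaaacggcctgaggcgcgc
HES1 held the core at 84 to 79 and again at 70 to 65 bases before its start, and HES4 held it once, at 76 to 71 bases. All 3 matches lie on the strand of the gene. The first match of HES1 and that of HES4 are part of the longer form GTGGGAA, which was searched as well and overlaps the core. Promoter windows were found for 8 of the 10 genes, and not for DLL1 and HEY1. There were 12 windows in all, since RBPJ has 5 starts. The core occurred in 3 of them, those of HES1 and HES4 and 1 start of RBPJ, as did the longer form. Over 35116 windows of the same length, 20.85% held the core and 5.43% the longer form. The letters GGAATG, the core of the site of TEAD factors through which TAZ binds DNA, were in 0 of the 12 windows and in 11.9% of all. A match describes the letters of the window and not a bound site.

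Per length, the order of the 10 genes differed between the groups. Levels were divided by the length of the longest coding transcript in GENCODE release 29. In siNT, JAG1 led with 1135 ± 27.5 per kb, followed by HES1 with 821 ± 9.80 per kb. RBPJ (450 ± 34.1 per kb), HES4 (436 ± 39.7) and NOTCH2 (421 ± 12.9) followed and did not differ beyond their spread. HEY1 was at 190 ± 6.20 per kb and NOTCH1 at 83.7 ± 9.38, and JAG2, NOTCH3 and DLL1 lay at 10.2 ± 2.30, 10.0 ± 1.09 and 8.62 ± 1.55 per kb, again within their spread. In siTAZ, HES1 led with 964 ± 10.1 per kb, ahead of NOTCH2 with 552 ± 2.76, JAG1 with 533 ± 9.85, RBPJ with 450 ± 33.9 and HES4 with 303 ± 44.6. DLL1, at 29.4 ± 5.48 per kb, stood above JAG2 (11.4 ± 1.04) and NOTCH3 (5.37 ± 0.65) there. The places of RBPJ, HES4 and NOTCH2 in siNT depend on the length used: with merged exons HES4, at 405 ± 36.9 per kb, came before RBPJ, at 291 ± 22.1, and NOTCH2, at 285 ± 8.74.

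Summed per kb, transcripts of the 3 ligands were at 1151, 1131 and 1179 in siNT and at 560, 590 and 572 in siTAZ. Those of the 3 receptors were 495, 538 and 511 in siNT and 660, 653 and 648 in siTAZ. In both sums the groups did not overlap, and they moved in opposite directions. The sums and the shares below leave out NOTCH4 and other ligands. Among these, DLL4 had mean deposited values of 71.6 in siNT and 130 in siTAZ, and DNER of 673 and 225. JAG1 made up 98.4% ± 0.36 of the ligand sum in siNT and 92.9% ± 0.77 in siTAZ, while DLL1 went from 0.75% ± 0.15 to 5.11% ± 0.83 (SD, n = 3). NOTCH2 made up 81.8% ± 1.18 of the receptor sum in siNT and 84.5% ± 0.40 in siTAZ, with NOTCH1 at 16.2% ± 1.24 and 14.7% ± 0.31. The sum over the 3 targets was 1447 ± 39.7 per kb in siNT and 1403 ± 49.4 in siTAZ, and the share of HES1 in it was 56.8% ± 1.75 and 68.8% ± 1.69.

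**Figure D3:**
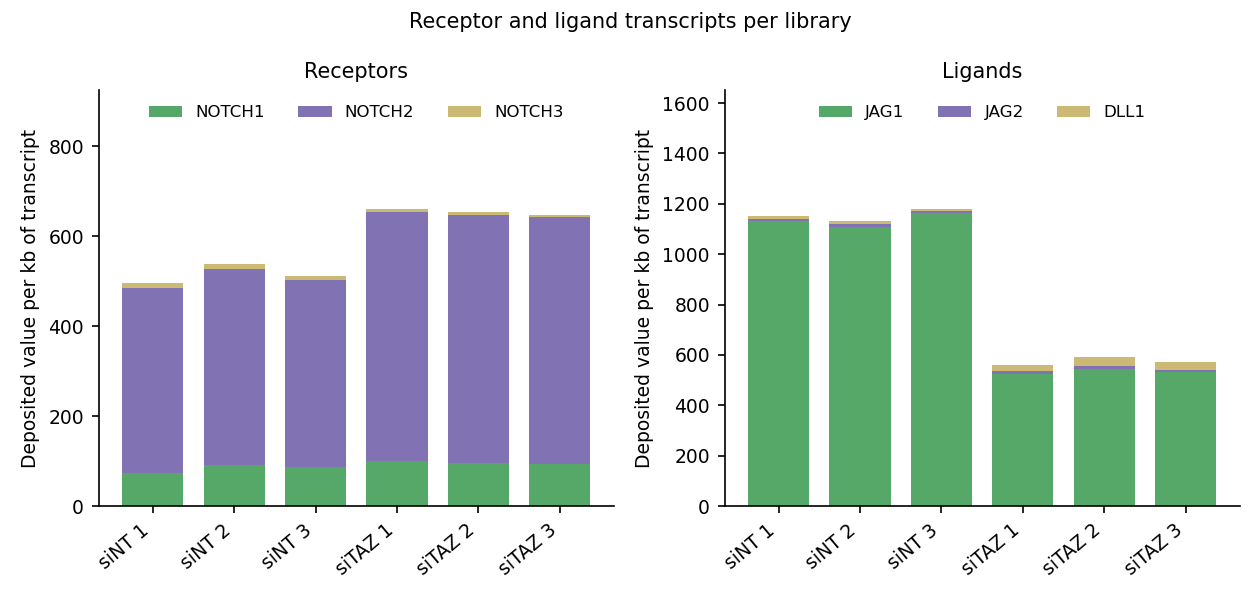
Deposited value per kb of transcript for the 3 receptors (left) and the 3 ligands (right), stacked, with 1 bar per library and both axes starting at 0. Other receptors and ligands are not included. The receptor bars are 495 to 538 high in siNT and 648 to 660 in siTAZ, mostly NOTCH2, and the ligand bars are 1131 to 1179 and 560 to 590 high, mostly JAG1.

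Whether genes of the same role changed by different folds was tested on the log2 ratio of each of 9 pairs. As 1 was added to each value, the scaling of a library cancels in this ratio except where a gene is scarce. For JAG1 to DLL1 the difference, siTAZ minus siNT, was -2.82, and -2.55 with the pseudocount of 10. With 3 libraries against 3, the exact two-sided permutation test cannot go below 0.10, or 0.129 after adjustment over the 9 pairs, so no pair could pass. In 7 pairs the ratios of the groups did not overlap, each with an exact permutation p of 0.10. The share of such pairs over all genes was not computed, and for 61.4% of single genes the groups did not overlap. Pairs of the same role share genes and are not independent, so the count of 7 is a description only. The log2 ratio of JAG1 to DLL1 was 7.91 ± 0.30 in siNT and 5.08 ± 0.25 in siTAZ, and that of NOTCH2 to NOTCH3 was 5.78 ± 0.13 and 7.05 ± 0.16 (SD, n = 3). That of HES1 to HEY1 was 1.57 ± 0.03 in siNT and 2.28 ± 0.07 in siTAZ. The log2 ratios of HES4 to HEY1 overlapped, at 0.05 ± 0.13 in siNT and 0.0018 ± 0.26 in siTAZ (exact permutation p = 0.80), as did those of NOTCH1 to NOTCH2 (-2.63 ± 0.13 and -2.81 ± 0.04, exact permutation p = 0.20).

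The wider pathway was described with 69 genes in 7 lists by role, of which 64 were tested. Of these, 26 passed as higher, 18 as lower and 20 not at all, beside 28.3% higher and 27.5% lower over all genes tested, and their median log2 fold change was 0.09. With values scaled to the total count, 29 rose and 11 fell, and the split over all genes also moved, from 4874 higher and 4730 lower to 5561 and 4045. The counts of single lists below are to be read against the same background of 55.8% called. That share is larger among better expressed genes, as given above.

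Among the other receptors and ligands, 1 of 5 genes tested rose and 3 fell. DLL4, a Delta-like ligand best known from sprouting vessels, rose as DLL1 did, from 73.3, 73.8 and 67.7 to 129, 142 and 118 (log2 fold change 0.84, limma adjusted p = 3.1e-05). DNER, an unconventional ligand of neurons, fell 2.99-fold, from 673 ± 37.2 to 225 ± 27.8. NOTCH4, the fourth receptor, was scarce and fell from 30.6 ± 2.03 to 11.5 ± 1.31 (limma adjusted p = 0.00022). DLL3, a ligand that inhibits the receptor within the same cell, fell from 30.8 ± 5.80 to 19.6 ± 4.36 (limma adjusted p = 0.039), a call lost in 7 of 16 alternatives: without siNT replicate 3 (0.16), without siTAZ replicate 1 (0.16), without both libraries numbered 1 (0.16), in DESeq2 (0.13), in voom (0.054), with total count scaling (0.057) and without the intensity trend (0.051). Its adjusted p ranged from 0.029 to 0.16.

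Of 9 genes of receptor cleavage, 4 rose and 4 fell, with a median log2 fold change of -0.11. FURIN, the convertase that makes the mature 2-part receptor, fell 1.5-fold, from 15053 ± 662 to 10028 ± 692. The gamma-secretase subunits did not move together: APH1B rose 1.79-fold, from 306 ± 16.7 to 546 ± 20.4, while PSENEN fell 1.21-fold (log2 fold change -0.28, limma adjusted p = 0.0020).

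Genes that put sugars on the receptor's EGF repeats rose in 6 of 9 cases and fell in 2 (28.3% and 27.5% of all genes tested), with a median log2 fold change of 0.55. LFNG encodes a Fringe enzyme, which extends O-fucose and shifts a receptor's response between Delta-like and Jagged ligands. It was at 1529, 1732 and 1554 in siNT and at 3571, 3458 and 3366 in siTAZ. The groups were far apart, and LFNG changed by 1.11 in log2 (SE 0.06, limma adjusted p = 5.0e-11). The other Fringe genes did not follow to that extent. MFNG, at 2274 ± 133 in siNT and 2134 ± 129 in siTAZ, did not pass (limma adjusted p = 0.19). RFNG rose 1.18-fold from 694 ± 36.8 (limma adjusted p = 0.0050). The xylosyltransferases that extend O-glucose also rose, GXYLT2 2.72-fold from 44.7 ± 7.0, XXYLT1 1.79-fold from 651 ± 32.4 and GXYLT1 1.74-fold from 1310 ± 66.7.

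Ubiquitin ligases and other genes of ligand and receptor turnover rose in 7 of 12 cases and fell in 3 (28.3% and 27.5% of all genes tested), with a median of 0.27. NEURL1B, a Neuralized ligase that acts on ligands, rose 3.77-fold, from 70.2, 71.6 and 78.5 to 285, 279 and 266 (limma adjusted p = 2.5e-10), and its relative NEURL1 rose 2.74-fold from 39.6 ± 12.1. DTX4, a Deltex ligase, rose 3.49-fold, from 33.6 ± 4.74 to 117 ± 14.6. NRARP, itself a direct Notch target that feeds back on the active complex, fell as HES4 and HEY1 did, from 214, 262 and 294 in siNT to 116, 149 and 138 in siTAZ (-0.92 in log2, SE 0.13, limma adjusted p = 8.8e-06). The target HES1 rose instead (log2 fold change 0.23).

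Of 8 coactivators of RBPJ, 2 rose, 1 fell and 5 did not pass. MAML1, the Mastermind protein that bridges the receptor fragment and histone acetyltransferases, rose 1.53-fold, from 2670 ± 142 to 4096 ± 119. KAT2B, an acetyltransferase, rose 2.72-fold, from 280 ± 21.0 to 761 ± 66.0, while its paralog KAT2A fell 1.12-fold (limma adjusted p = 0.011), a call lost without siNT replicate 3 (0.074), without siTAZ replicate 2 (0.061), with the replicate block (0.063) and with total count scaling (0.069), with a highest value of 0.074 over 17 alternatives. Of 14 corepressors, 5 rose, 2 fell and 7 did not pass, a share near the 55.8% called over all genes. TLE3, a Groucho corepressor that HES proteins recruit, rose 1.37-fold, TLE1 fell 1.30-fold, KDM5A, a demethylase in the RBPJ repressor complex, rose 1.35-fold and CIR1 rose 1.28-fold.

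The other HES and HEY genes, with 2 related repressors of the same superfamily, numbered 7 with values, of which 3 fell, 1 rose and 3 (HES7, HEY2 and HEYL) did not pass. HES2 fell 3.84-fold, from 54.5, 69.5 and 54.4 to 15.6, 13.8 and 17.1 (log2 fold change -1.87, SE 0.21, limma adjusted p = 9.7e-07). HES6, which counteracts HES1, fell 1.66-fold, from 798 ± 62.1 to 482 ± 39.5. The circadian repressors BHLHE40 and BHLHE41 parted, BHLHE40 falling 1.74-fold from 3226 ± 123 and BHLHE41 rising 2.68-fold from 307 ± 7.53.

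**Figure D4:**
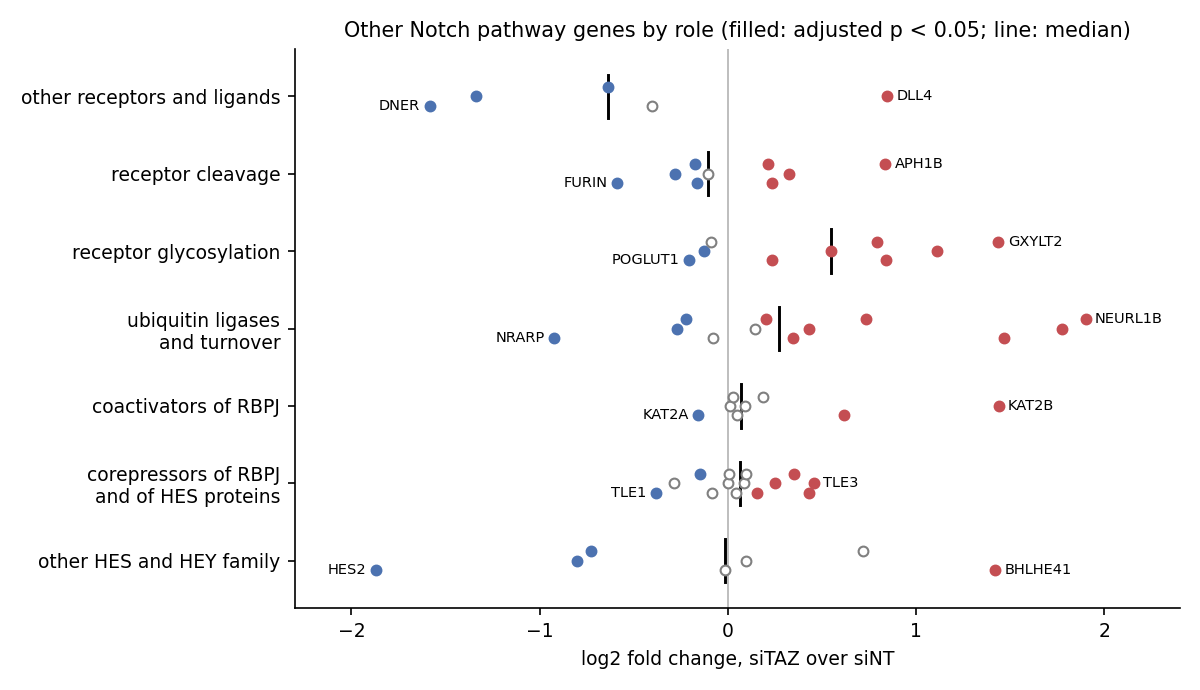
Log2 fold change, siTAZ over siNT, of the 64 other Notch pathway genes tested, 1 row per role, with 1 point per gene, filled where it passed, and a line at the list's median. The medians run from -0.64 for other receptors and ligands to 0.55 for receptor glycosylation, and the lowest and highest gene of each list are named.

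DLL1 had the largest change of the 10. Over the 6 libraries, the genes most like it in log2 values were TTC8, CYP4V2 and PHF21A, each with a Pearson's r of 1.00 to 2 decimals. This describes likeness in 6 points that fall into 2 groups, and 1460 of 11135 genes compared had an r over 0.95 with DLL1.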

How the data were processed

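The deposited table holds a signal per gene and library, which the values show to be reads divided by 1 size factor per library: 100% of values were whole multiples of 1 read within 0.001. The authors used HISAT2, HTSeq, DESeq2 and FastQC with hg19, per the submitters' processing notes. The sources used here give no versions, annotation, strand setting or gene filter, so a gene without a row may have had reads.

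Symbols came from a table of identifiers (16662 of 17211 genes) and GENCODE release 29 (81 genes). The main test was limma 3.58.1 in R 4.3.3 with an intensity trend on log2(deposited value + 1), a scale that understates changes of low genes, for genes with a mean of at least 1 and with the group as the only term. P-values were adjusted over all 17204 genes. Folds are ratios of mean deposited values. Alternatives included edgeR 4.0.16, DESeq2 1.42.0 and voom on the recovered reads. The main test, the replicate block, edgeR, DESeq2 and voom were also run on simulated counts, and the other alternatives were not. The simulated counts held no replicate that stood apart, unlike replicate 1 here. In them 200 genes were changed, while 9604 were called here, so they do not show the error rate of these calls. Named pathway genes were, in each list, at most 4 called genes of the largest change with a mean of at least 10. Some genes that the rule takes are left out, and MFNG and RFNG are given in addition, beside LFNG. The members, lists and rules were chosen with earlier results of these data known. Replicates of a group differed by more than sampling noise (chi-square per degree of freedom 2.75 to 8.62).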

Additional observations from a re-analysis of the deposited data

How the results depend on the processing

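Over 17 alternatives, 4 of the 10 Notch genes were called lower each time and 3 or 4 higher, with calls changing in NOTCH1 and RBPJ. NOTCH1 kept its direction but did not pass without the intensity trend (0.21, adjusted p = 0.12) or with the replicate block (0.21, adjusted p = 0.050), and with libraries left out, 1 at a time or both numbered 1, its log2 fold change ran from 0.090 to 0.27. Leaving out both was chosen after seeing the data. RBPJ changed sign with edgeR (0.0099), voom (0.0064) and total count scaling (0.053), and with libraries left out ran from -0.044 to 0.12, passing only without both libraries numbered 1. The log2 ratio of HES4 to HEY1, siTAZ minus siNT, ran from -0.20 to 0.042 leaving out 1 library at a time. Other pathway genes called lower were 18, and 11 with total count scaling, which shifted the median of all genes by 0.05. The same block gave 8701 calls over all genes against 9604. Of the 27 pathway genes that the naming rule takes, 25 kept direction and call under every alternative run on them. DLL3 and KAT2A kept only direction. The replicate numbers did not pair the libraries: the deviations of same-numbered libraries from their group means had correlations of -0.53, -0.30 and -0.09. Between differently numbered libraries the correlations ran from -0.37 (siNT 2 and siTAZ 3) to 0.47 (siNT 2 and siTAZ 1). A pairing in another order was not tested. Depth limits DLL1, NOTCH3 and JAG2, read 18 to 119 times per library. It also limits HES2, NOTCH4 and DLL3, at values of 10.2 to 22.2 in siTAZ, and NEURL1, DTX4 and GXYLT2, at 28.3 to 53.2 in siNT.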
